A study of Rattus norvegicus with 24 samples.

Results

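The 9 limbs described here are the 6 left limbs of aged rats labelled as under nerve block with tetrodotoxin (TTX) when the muscle was collected, together with the left limbs of 3 sham-operated rats. They make up 9 of the 24 samples of the series, which holds both limbs of 12 animals, and the rule that picks them uses their labels and no measured value. RNA of the tibialis anterior (TA), the main dorsiflexor of the ankle, was sequenced from male Fischer 344 rats aged 23 ± 1 months. TTX was delivered to the common peroneal nerve, which supplies this muscle. By the labels and the study's methods, the nerve had been silent for 6 to 7 days in the 3 atrophy limbs. In the 3 repeated atrophy limbs a first block of the same length had been followed by 9 days without TTX and then by a second block of 5 to 6 days. The 3 sham animals underwent the surgery without TTX, 1 at the atrophy (sham 1), 1 at the recovery (sham 2) and 1 at the repeated atrophy time point (sham 3), so that sham limbs of the 3 time points form a single group. Each of the 9 limbs came from a different animal, and all were whole muscle, in which fewer cells of a type and less RNA per cell cannot be told apart. The comparison asks which transcripts both periods of silencing shared against operated limbs of other animals, whose nerves conducted.

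Motor nerve activity is known to hold the muscle's expression programme in place. In an innervated fibre, acetylcholine receptors are made mainly beneath the nerve terminal, and impulses repress their genes elsewhere through calcium-dependent kinases, histone deacetylases and myogenin. When impulses stop, this repression is lifted along the fibre, fetal receptor and channel isoforms can reappear, and the enzymes that fuel fast contraction, the contractile isoforms of the fibre type and the ubiquitin ligases of protein breakdown can all shift.

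Nerve impulses are known to repress the acetylcholine receptor genes, and 3 of the 5 subunit genes of muscle were called among rows of at least 10 CPM (1.41% of all such rows were called higher), so the RefSeq promoter windows of all 5 are shown, each from 250 bases before to 50 bases after the start of the gene on its own strand (build GRCr8). Capitals mark E-boxes, the motif CANNTG that myogenic factors such as myogenin and MyoD bind, which reads the same on both strands. *Chrna1* (chr3:78877304-78877603, minus strand) encodes the α, *Chrnb1* (chr10:55015058-55015357, minus strand) the β, *Chrnd* (chr9:95310066-95310365, plus strand) the δ, *Chrne* (chr10:55834105-55834404, minus strand) the adult ε and *Chrng* (chr9:95325734-95326033, plus strand) the fetal γ subunit.
Chrna1: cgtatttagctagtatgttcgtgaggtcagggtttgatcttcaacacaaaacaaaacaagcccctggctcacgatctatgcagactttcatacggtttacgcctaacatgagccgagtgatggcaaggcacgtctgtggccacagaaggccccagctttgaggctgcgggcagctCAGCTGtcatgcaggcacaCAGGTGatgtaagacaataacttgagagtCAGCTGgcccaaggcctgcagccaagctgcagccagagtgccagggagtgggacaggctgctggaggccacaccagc
Chrnb1: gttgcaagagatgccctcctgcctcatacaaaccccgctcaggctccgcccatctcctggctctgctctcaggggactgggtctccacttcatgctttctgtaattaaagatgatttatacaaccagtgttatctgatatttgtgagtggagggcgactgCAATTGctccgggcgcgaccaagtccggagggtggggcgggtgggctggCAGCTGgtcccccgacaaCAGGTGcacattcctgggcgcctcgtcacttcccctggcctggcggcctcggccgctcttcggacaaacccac
Chrnd: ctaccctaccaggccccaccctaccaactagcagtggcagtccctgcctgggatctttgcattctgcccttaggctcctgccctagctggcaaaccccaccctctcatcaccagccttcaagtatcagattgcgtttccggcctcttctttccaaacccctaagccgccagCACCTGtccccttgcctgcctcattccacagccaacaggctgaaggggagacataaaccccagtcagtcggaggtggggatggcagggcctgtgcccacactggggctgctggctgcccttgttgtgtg
Chrne: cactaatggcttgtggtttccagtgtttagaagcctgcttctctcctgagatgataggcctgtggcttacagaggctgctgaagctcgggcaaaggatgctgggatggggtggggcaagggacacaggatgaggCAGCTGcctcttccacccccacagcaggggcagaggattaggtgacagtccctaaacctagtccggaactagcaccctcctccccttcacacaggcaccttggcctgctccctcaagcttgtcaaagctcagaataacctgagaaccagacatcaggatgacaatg
Chrng: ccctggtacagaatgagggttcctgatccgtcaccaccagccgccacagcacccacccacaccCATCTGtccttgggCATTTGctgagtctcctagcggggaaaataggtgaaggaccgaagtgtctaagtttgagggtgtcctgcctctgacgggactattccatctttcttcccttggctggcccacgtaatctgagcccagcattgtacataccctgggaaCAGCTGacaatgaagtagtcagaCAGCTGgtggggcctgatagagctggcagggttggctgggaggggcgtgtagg
The windows held 3 E-boxes in *Chrna1*, 3 in *Chrnb1*, 1 in *Chrnd*, 1 in *Chrne* and 4 in *Chrng*. The form CAGCTG, 1 of the forms of CANNTG, occurred in 4 of the 5 genes (2 copies each in *Chrna1* and *Chrng*, 1 each in *Chrnb1* and *Chrne*). Over 33469 windows of this length, 72.1% held at least 1 CANNTG, 15.1% held CAGCTG and 1.69% held 2 or more copies of CAGCTG. A match of letters is a description of the window and does not show that a factor was bound.

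The deposited table gives counts per 1000000 reads (CPM) for 14243 different rows of 13458 symbols. Some symbols have several rows that overlap in position, and for these the row of highest mean is shown unless stated otherwise. Depth was inferred by taking the most frequent value below 3.0 CPM of a limb as 1 read. It was, in units of 1000000 reads, 23.9 to 30.7 in the silenced limbs and 22.6 to 29.7 in the sham limbs (two-sided exact permutation test over the 84 splits of 6 against 3 limbs, p = 0.5, smallest possible p = 0.0238). The 10 most abundant rows took 17.8 ± 4.37% of all CPM in the silenced limbs (SD, n = 6) and 24.8 ± 2.71% in the sham limbs (SD, n = 3; p = 0.0476, the same exact permutation test). Atrophy 2, at 25.6%, lay among the sham limbs, which were at 25.7%, 27.0% and 21.8%. Leaving out any 1 of the other 8 limbs gave an exact permutation p of 0.0714 to 0.143, while without atrophy 2, which lay among the sham limbs on this measure, the mean difference went from -6.99 to -8.54 percentage points.

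Atrophy 2 stood apart from the other silenced limbs, and sham 2 and sham 3 each stood apart from the other sham limbs in some genes. Over the 7028 rows with a mean of at least 10 CPM, the left and the right limb of the atrophy 2 animal differed by more than 1 on the log2(CPM + 1) scale in 0.953% of rows. This share was 0.526%, 1.92% and 0.541% in the 3 sham animals, whose limbs were both without TTX. It was 29.5% and 7.56% in the atrophy 1 and 3 animals, and 19.6%, 30.3% and 22.9% in the repeated atrophy animals. The left limb labelled atrophy 2 thus differed from its own untreated right limb in about as few rows as the left limbs of sham animals did. Whether its nerve was silent when the muscle was collected cannot be told from these values. Its label was kept, it is counted among the silenced limbs, and results that rest on it are given with and without it. The sham animal with the largest share, sham 2, was higher in its left than in its right limb by 1.64 on the log2 scale for *Chrna1*, 1.88 for *Chrnd*, 1.96 for *Chrng*, 2.43 for *Ncam1* and 3.00 for *Myh3*, while the other sham animals were below 0 for each. Sham 3 was high for *Trim63* (4029 CPM against 307 and 333 in the other sham limbs) and *Gadd45a* (616 against 82.2 and 85.3).

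**Figure D1:**
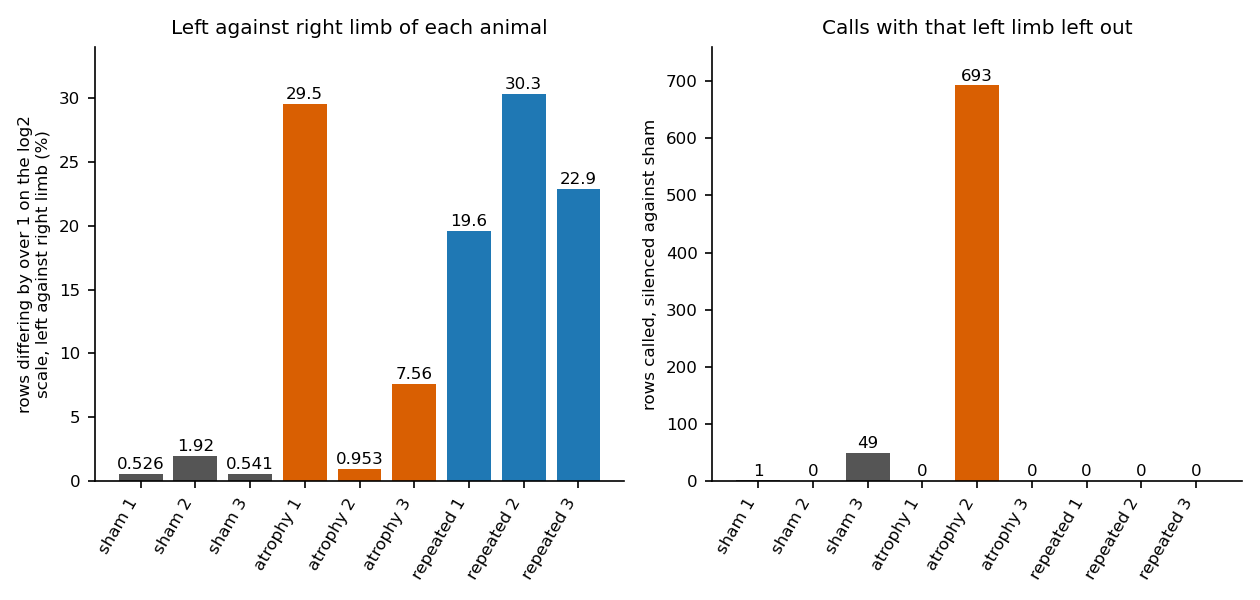
Left panel, share of the 7028 rows with a mean of at least 10 CPM (%) in which the left and right limb of an animal differed by over 1 on the log2(CPM + 1) scale. Right panel, rows called in the comparison of silenced and sham left limbs when that left limb was left out. Bars are single animals or limbs (grey, sham; orange, atrophy; blue, repeated atrophy). Atrophy 2 is at 0.953%, near the sham animals, and leaving it out gives 693 calls.

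Silenced and sham left limbs were compared with limma on log2(CPM + 1), the mean of the 2 silenced groups against the sham group, over the 13712 rows above 0 in at least 3 of the 9 limbs. Calls required a 1.2-fold difference or more and, after Benjamini-Hochberg adjustment over these rows, a p no higher than 0.05. Of these rows, 2 (0.0146%) were called, both lower in the silenced limbs. At an unadjusted p under 0.05, 11.5% of rows were higher and 5.54% lower. All 6 silenced limbs lay above all 3 sham limbs in 498 rows (3.63%) and below them in 248 rows (1.81%). Among the 7028 rows with a mean of at least 10 CPM, tested alone with all 9 limbs, 99 (1.41%) were called higher and 26 (0.37%) lower. Of these calls, that of *Tpm3* was the 1 also made over all rows, and a row that is low in sham limbs can pass this filter through the silenced limbs alone. In the fit over all rows, leaving out any of the other 5 silenced limbs gave 0 calls. Atrophy 2 was singled out for values near those of the sham limbs, so that leaving it out widens the difference by construction, and calls made without it are given as a description and not as support. Sham 3 was noticed for values on the side of the silenced limbs in some genes. Calls made without sham 3 carry the same limit. Without atrophy 2, 530 of 13640 rows (3.89%) were called higher and 163 (1.2%) lower. In those 693 rows, atrophy 2 lay beyond the sham range in the called direction in 32%, within it in 60.5% and on the other side in 7.5%. In the 498 rows without overlap that were higher in silenced limbs, atrophy 2 was the silenced limb nearest to the sham limbs in 75.7% and sham 3 the nearest sham limb in 48.8%. In the 248 lower rows, atrophy 2 was nearest in 37.9%, and sham 2 (40.7%) and sham 3 (38.3%) were the nearest sham limbs about equally often. The median log2 difference of all rows was 0.06, or -0.02 after rescaling each limb by a trimmed mean of log ratios.

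*Tpm3*, which encodes the slow-fibre α-tropomyosin that lies along the thin filament, was 1 of the 2 called genes. Its row (rn7, chr2:175517226-175535994, plus strand, as the table gives it) was at 263, 313 and 388 CPM in sham 1, 2 and 3. It was at 91.5, 116 and 132 CPM in atrophy 1, 2 and 3 and at 78.5, 88.6 and 67.4 CPM in repeated atrophy 1, 2 and 3. Every silenced limb lay below every sham limb, atrophy 2 included, and *Tpm3* fell by 1.76 ± 0.19 on the log2 scale (SE, limma adjusted p = 0.0314). Of the 3 other rows of *Tpm3*, the one with more than about 1 CPM had a log2 difference of -0.84 (adjusted p = 0.25). *Socs3* (chr10:103195236-103196099, minus strand), an inhibitor of cytokine signalling, was the other called gene. It stood at 2.41, 1.99 and 1.99 CPM in the sham limbs and at 0.042 to 0.884 CPM (median 0.365) in the silenced limbs, again without overlap, with a log2 difference of -1.21 ± 0.14 (adjusted p = 0.0314). At such levels a row rests on few reads. With left minus right differences within animals in place of the left limbs alone, neither was called (*Tpm3*, -1.45, adjusted p = 0.125; *Socs3*, -0.41, adjusted p = 0.431). *Tpm3* was called in 16 of its 27 alternatives and *Socs3* in 14 of 26.

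**Figure D2:**
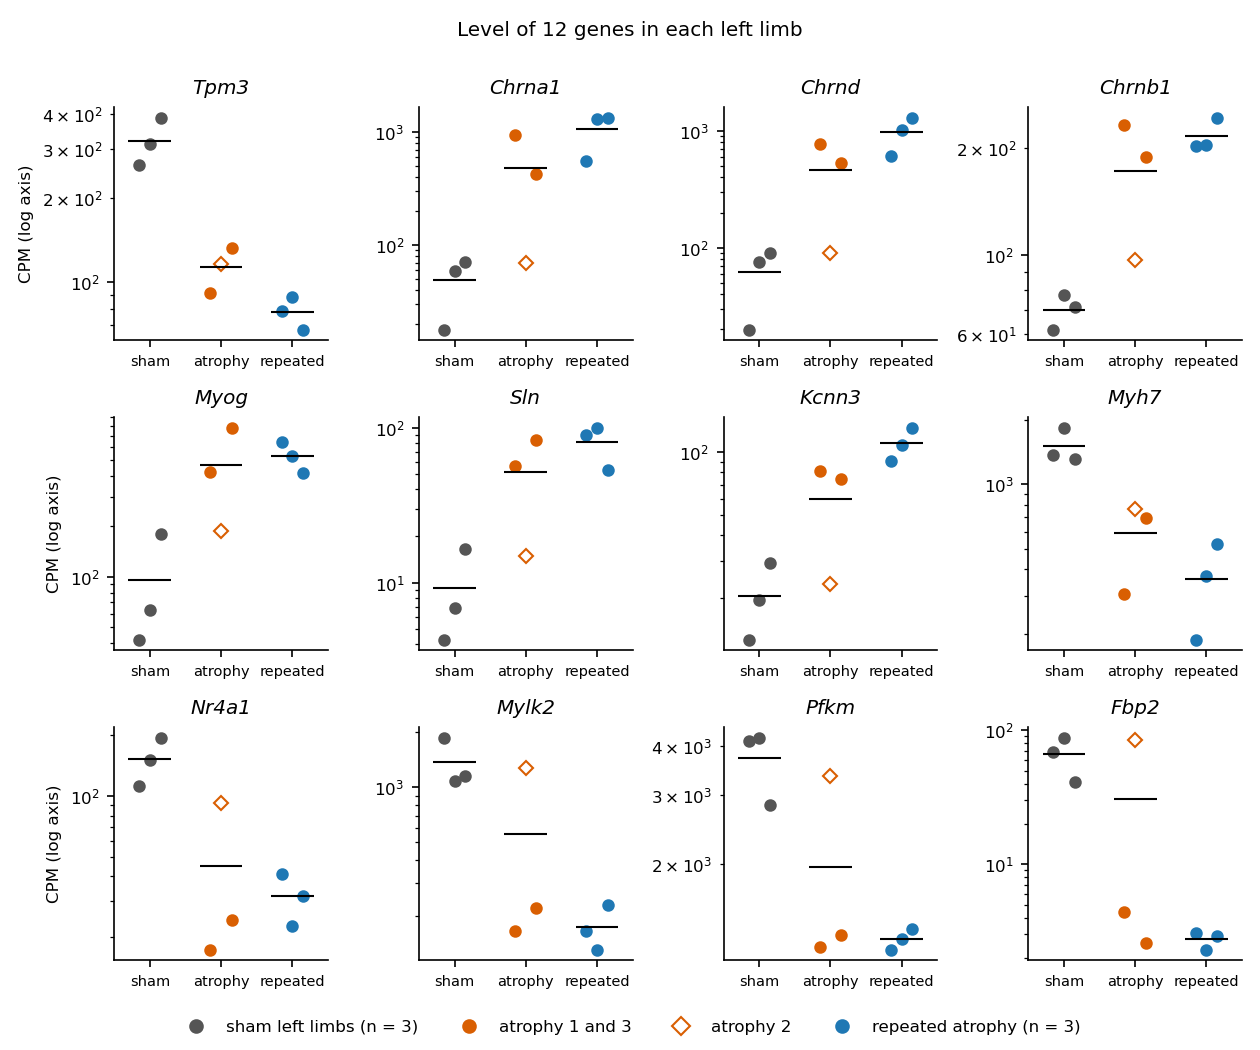
Level of 12 genes (CPM, log axis, a scale per gene) in the sham, atrophy and repeated atrophy left limbs. Each point is a limb, the open diamond is atrophy 2 and lines are arithmetic group means (n = 3). Atrophy 2 sits with the silenced limbs for *Tpm3* and *Myh7* and with the sham limbs for *Mylk2*, *Pfkm* and *Fbp2*.

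Among the 17 acetylcholine receptor and postsynaptic genes, none was called over all rows by limma (8 higher and 1 lower at an unadjusted p under 0.05). Among rows with a mean of at least 10 CPM, 4 of 13 rose and 0 fell (*Chrna1*, *Chrnd*, *Chrnb1*, *Ncam1*). Without atrophy 2, 7 of the 17 rose and 0 fell. For this list and those below, 11.5% of all rows were higher and 5.54% lower at an unadjusted p under 0.05. The shares of all rows called higher and lower were 1.41% and 0.37% above 10 CPM, and 3.89% and 1.2% without atrophy 2. The median log2 difference of the list was 0.38, or 0.43 without atrophy 2, against 0.06 and 0.10 for all rows. *Chrna1*, the subunit with the acetylcholine binding site, was at 17.8, 59.3 and 71.7 CPM in the sham limbs. It was at 938, 69.9 and 430.5 CPM in the atrophy limbs and 561, 1307 and 1349 CPM in the repeated atrophy limbs. Atrophy 2 was the only silenced limb within the sham range, and the other 5 were at least 430 CPM. The log2 difference was 3.67 ± 0.74 (SE), with an adjusted p of 0.105 over all rows, 0.0331 among the rows of at least 10 CPM and 0.00438 without atrophy 2. *Chrnd* was at 19.8, 75.2 and 90.2 CPM in the sham limbs and at 90.4 to 1304 CPM in the silenced limbs, its lowest being atrophy 2, which lay just above the highest sham limb. Its log2 difference was 3.42 ± 0.67 (adjusted p = 0.097 over all rows, 0.0331 above 10 CPM). *Chrnb1* rose less, at 61.8, 77.5 and 71.8 CPM in sham and 96.8 to 244 CPM in silenced limbs without overlap (log2 difference 1.41, adjusted p = 0.0331 above 10 CPM).

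The 2 subunits that replace each other between fetal and adult receptors both had positive differences. Fetal *Chrng* was at 1.24, 10.3 and 3.03 CPM in the sham limbs, at 70.6, 4.46 and 18.6 CPM in the atrophy and at 35.5, 89.6 and 173 CPM in the repeated atrophy limbs. Atrophy 2 lay within the sham range, and the other 5 limbs, at 18.6 CPM or more, lay above it. Its log2 difference of 3.12 was not called with all limbs (adjusted p = 0.14, or 0.0549 above 10 CPM) and was called without atrophy 2 (3.58, adjusted p = 0.0216). Adult *Chrne* was at 11.3, 10.6 and 11.1 CPM in sham, 24.03, 9.80 and 9.86 CPM in atrophy and 31.6, 31.6 and 46.7 CPM in repeated atrophy limbs. All 3 repeated limbs exceeded the sham limbs and 2 of the 3 atrophy limbs did not, and *Chrne* was not called with or without atrophy 2 (adjusted p = 0.181 and 0.0778).

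Genes that anchor and signal around the receptor gave a mixed picture. *Ncam1*, an adhesion molecule spread over the membrane of inactive fibres, was at 8.39, 34.7 and 21.5 CPM in sham limbs and 31.7 to 537 CPM in silenced limbs, with atrophy 2 lowest and below sham 2 (log2 difference 2.96, adjusted p = 0.0403 above 10 CPM). *Musk*, the kinase that organises the synapse, and *Lrp4*, its agrin-binding partner, were not called with all limbs and were called when atrophy 2 was left out, with log2 differences of 1.72 and 1.43 (adjusted p = 0.0335 and 0.0209). *Rapsn*, which clusters the receptors, was not called with or without it (0.38, adjusted p = 0.297). *Ache*, whose enzyme breaks acetylcholine down at the synapse, was at 33.04, 56.97 and 4.61 CPM in the sham limbs and at 0.887 to 3.44 CPM in the 5 silenced limbs other than atrophy 2, which was at 32.04 CPM. Sham 3 was low with the silenced limbs, and *Ache* was not called with all limbs (log2 difference -2.08, adjusted p = 0.247) or without atrophy 2 (adjusted p = 0.0678).

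Of 13 myogenic and fusion factors tested, none was called over all rows (5 higher and 0 lower at an unadjusted p under 0.05), 1 was called above 10 CPM and 4 rose without atrophy 2. Of all rows, 11.5% were higher at that p, 1.41% rose above 10 CPM and 3.89% rose without atrophy 2. The list median was 0.64, 0.84 without atrophy 2. *Myog*, encoding myogenin, was at 41.8, 63.1 and 179.9 CPM in the sham limbs, 424, 187 and 782 CPM in the atrophy and 637, 526 and 419.9 CPM in the repeated atrophy limbs. No silenced limb overlapped the sham limbs, although atrophy 2 and sham 3 lay close together, and the log2 difference of 2.52 ± 0.50 had an adjusted p of 0.0988 over all rows and 0.0331 above 10 CPM. *Mymk*, the membrane protein myomaker that fuses myoblasts, was at 0.233, 5.44 and 15.5 CPM in sham and 35.00 to 191 CPM in the silenced limbs other than atrophy 2 (6.69 CPM). It was not called with all limbs and was called without that limb (log2 difference 4.48, adjusted p = 0.0191). *Myod1* followed the same pattern with a smaller difference (1.33 without atrophy 2, adjusted p = 0.0216). *Rb1*, the retinoblastoma protein that keeps muscle nuclei out of the cell cycle, was the last of the 4, at 56.4, 46.4 and 82.5 CPM in sham and 76.8 to 228 CPM in silenced limbs (1.42 without atrophy 2, adjusted p = 0.029). *Myf6*, the member of the list with the highest mean, was at 759 CPM in sham 3 and 139 and 142 CPM in the other sham limbs, against 314 to 789 CPM in the silenced limbs. Its adjusted p was 0.264 with all limbs and 0.0472 without sham 3.

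Of 19 regulators of activity-dependent transcription, 0 were called over all rows (5 higher and 3 lower at an unadjusted p under 0.05) and 1 was called higher and 1 lower above 10 CPM. *Runx1*, a transcription factor of denervated muscle, was at 3.73, 9.16 and 25.6 CPM in sham limbs and at 58.9 to 107 CPM in the silenced limbs other than atrophy 2, which at 19.02 CPM was below sham 3 (log2 difference 2.67, adjusted p = 0.0412 above 10 CPM). *Nr4a1*, an immediate-early nuclear receptor that contraction induces, was at 112, 151 and 195 CPM in the sham limbs, 17.3, 92.7 and 24.4 CPM in the atrophy limbs and 40.9, 22.7 and 31.8 CPM in the repeated atrophy limbs. All silenced limbs were below all sham limbs, with atrophy 2 nearest to them, and *Nr4a1* fell by 2.16 ± 0.45 on the log2 scale (adjusted p = 0.0366 above 10 CPM, 0.109 over all rows). *Nfatc1*, a calcineurin target, was lower in every silenced limb (12.9 to 30.8 against 46.2, 43.3 and 35.5 CPM in sham) but was not called with or without atrophy 2 (adjusted p = 0.174 and 0.0949). *Hdac4*, the deacetylase through which myogenin is induced when the nerve is cut, was at 8.66, 11.95 and 5.83 CPM in sham and 11.2 to 48.02 CPM in silenced limbs and was not called with or without atrophy 2 (adjusted p = 0.176 and 0.0587). *Rcan1*, a feedback inhibitor of calcineurin and the most abundant of the list, had a log2 difference of 1.63 (adjusted p = 0.2), with sham 3 at 440 CPM and the other sham limbs at 75.5 and 143 CPM. Left minus right, *Rcan1* was at 0.94 to 3.14 in the silenced and at -0.20 to 0.48 in the sham animals.

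Calcium handling and membrane excitability were represented by 26 and 19 genes. Neither list had a call over all rows (at an unadjusted p under 0.05, 5 higher and 1 lower for calcium handling and 6 higher and 5 lower for the channels and pumps). Of the calcium genes 3 rose above 10 CPM and 0 fell, and the same counts held without atrophy 2, while the median of the list was 0.01. Over all rows, 1.41% rose and 0.37% fell above 10 CPM, and 3.89% rose and 1.2% fell without atrophy 2. *Sln*, whose product sarcolipin uncouples the calcium pump of the sarcoplasmic reticulum, was at 4.27, 6.82 and 16.5 CPM in sham, 56.5, 14.9 and 84.1 CPM in atrophy and 90.6, 100.4 and 53.6 CPM in repeated atrophy limbs. Atrophy 2 lay below sham 3, the other silenced limbs were well above, and the log2 difference was 2.702 ± 0.53 (adjusted p = 0.0331 above 10 CPM, a filter passed through the silenced limbs, and 0.097 over all rows). *Mrln*, encoding the related pump inhibitor myoregulin, was at 42.6, 30.98 and 27.2 CPM in sham and 41.03 to 135 CPM in silenced limbs (1.41, adjusted p = 0.0481 above 10 CPM). *Cacnb1*, the β subunit of the voltage sensor of the triad, was at 126, 157 and 241 CPM in sham and 255 to 648 CPM in silenced limbs without overlap (1.54, adjusted p = 0.0331 above 10 CPM). *Camk2b*, a calcium-dependent kinase, also showed no overlap (243 to 562 against 176, 238 and 113 CPM) and was not called (log2 difference 1.11, adjusted p = 0.157; 0.0538 without atrophy 2). *Atp2a1*, the fast-fibre calcium pump and the most abundant of the list, was at 40606, 32984 and 34787 CPM in sham limbs and 12576 to 17844 CPM in the silenced limbs other than atrophy 2 (38180 CPM) and was not called with or without that limb (adjusted p = 0.547 and 0.346).

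Among the 19 sarcolemmal channels and pumps, 2 rose and 1 fell above 10 CPM. *Scn4a*, the adult muscle sodium channel, was at 219, 313 and 184 CPM in sham and 186 to 521 CPM in silenced limbs, with a difference of 0.24 (adjusted p = 0.722). *Kcnn3*, the apamin-sensitive potassium channel of denervated fibres, rose (12.7, 19.5 and 29.4 CPM in sham, 23.3 to 131 CPM in silenced limbs, log2 difference 1.91, adjusted p = 0.0366 above 10 CPM). The potassium channel gene *Kcna7* fell by 2.30 (adjusted p = 0.0454 above 10 CPM), from 212, 163 and 143 CPM in sham limbs to 18.9 to 32.5 CPM in the silenced limbs other than atrophy 2, which was at 167 CPM among the sham limbs. *Aqp4*, the water channel of fast fibres, was at 70.99, 54.5 and 19.3 CPM in sham limbs and at 0.207 to 3.74 CPM in 5 silenced limbs, while atrophy 2 was at 70.95 CPM. It was not called with all limbs and was called without that limb (-4.44, adjusted p = 0.00525). *Aqp1*, the water channel of capillary endothelium, was below sham in every silenced limb (228 to 345 against 603, 382 and 399.6 CPM) and was not called with or without atrophy 2 (adjusted p = 0.207 and 0.157), and its log2 difference of -0.61 was -0.10 left minus right.

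Glycolysis and glycogen genes were lower as a list in 5 of the 6 silenced limbs. The median of the 32 genes, relative to the mean of the sham limbs, was -0.75 and -0.80 in atrophy 1 and 3, -1.13, -0.96 and -0.96 in repeated atrophy 1, 2 and 3, and 0.08 in atrophy 2, with the sham limbs at 0.03, 0.27 and -0.36. The median log2 difference was -0.79 with all limbs and -0.93 without atrophy 2. None was called over all rows (1 higher and 14 lower at an unadjusted p under 0.05), 1 of 31 fell above 10 CPM, and 7 fell and 1 rose without atrophy 2. Over all rows, 5.54% were lower at that p, 0.37% fell above 10 CPM, and 1.2% fell and 3.89% rose without atrophy 2. *Pfkm*, the muscle form of phosphofructokinase that commits sugar to glycolysis, was at 4115, 4192 and 2821 CPM in the sham limbs, 1222, 3351 and 1315 CPM in the atrophy and 1205, 1282 and 1361 CPM in the repeated atrophy limbs. The other 5 silenced limbs lay in a narrow band between 1205 and 1361 CPM and atrophy 2 lay within the sham range, and *Pfkm* fell by 1.52 without that limb (adjusted p = 0.0189) but was not called with it (-1.28, adjusted p = 0.165). *Fbp2*, the muscle fructose bisphosphatase of glycogen resynthesis, was at 68.99, 88.1 and 41.3 CPM in sham, 4.42, 84.5 and 2.60 CPM in atrophy and 3.06, 2.31 and 2.90 CPM in repeated atrophy limbs. It fell by 3.98 without atrophy 2 (adjusted p = 0.00353) and was not called with it (-3.27, adjusted p = 0.139).

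*Pfkfb1*, which makes and removes the activator of phosphofructokinase, was the glycolysis gene called with all 9 limbs above 10 CPM. It fell by 2.45 ± 0.57 on the log2 scale (adjusted p = 0.044 above 10 CPM), with 57.8, 58.7 and 37.8 CPM in sham limbs, 3.29 to 8.41 CPM in 5 silenced limbs and 55.7 CPM in atrophy 2. *Gpd1*, which links glycolysis to glycerol phosphate, *Pkm*, the pyruvate kinase, and *Slc16a3*, the lactate exporter, fell without atrophy 2, by 2.48, 1.82 and 2.06 (adjusted p = 0.00859, 0.015 and 0.0151). The muscle enolase *Eno3* just missed the threshold there (-1.73, adjusted p = 0.056). *Hk2*, the hexokinase that traps glucose, went the other way: it was at 58.4, 79.2 and 99.3 CPM in sham limbs and 84.2 to 272 CPM in silenced limbs and rose by 1.35 without atrophy 2 (adjusted p = 0.0271). *Gapdh*, the most abundant of the list, was not called with all limbs or without atrophy 2 (-0.62 and -0.72, adjusted p = 0.611 and 0.471). *Mylk2*, the skeletal myosin light chain kinase of fast fibres, and *Actn3*, the α-actinin of fast Z-discs, were placed beside these enzymes. *Mylk2* was at 1860.4, 1076 and 1156 CPM in the sham limbs, 130.2 to 227 CPM in 5 silenced limbs and 1279 CPM in atrophy 2. *Actn3* was at 13457, 10074 and 7682, 1301 to 4001 and 10978 CPM in the same order, so that atrophy 2 lay within the sham range for both. *Mylk2* fell by 2.42 (adjusted p = 0.0447 above 10 CPM), and *Actn3* was not called with all limbs but was called without atrophy 2 (-2.31, adjusted p = 0.0162).

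**Figure D3:**
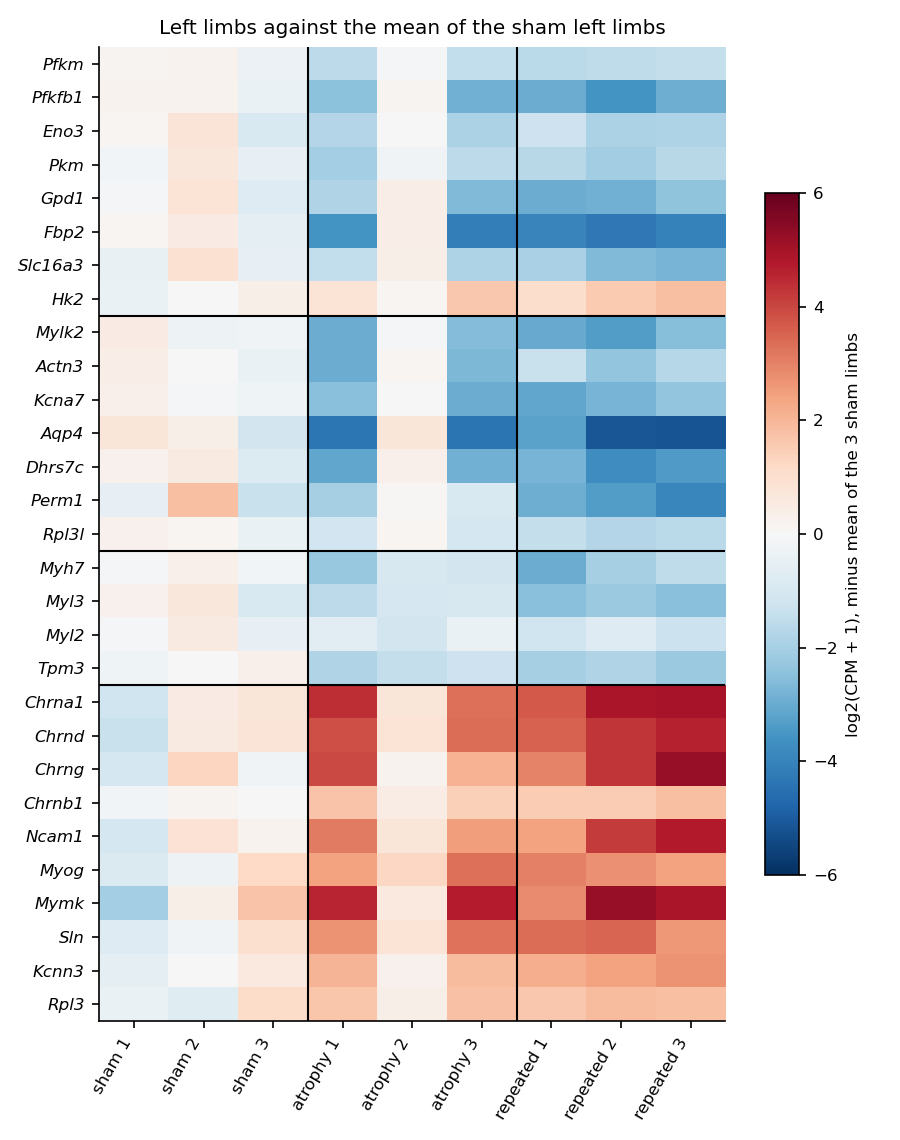
Difference of each left limb from the mean of the 3 sham left limbs on the log2(CPM + 1) scale (colour, limits -6 and 6). Rows from top to bottom are glycolysis genes, fast-fibre and metabolic genes, slow-fibre genes, and receptor, myogenic, membrane and ribosomal genes. Columns are single limbs. In the top 2 blocks atrophy 2 has the colours of the sham limbs, and in the slow-fibre block those of the other silenced limbs.

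*Myh7* and *Myl3*, contractile genes of slow fibres like *Tpm3*, were lower in every silenced limb, atrophy 2 included. Of 16 genes of myosin chains and of the kinase *Mylk2*, which the list includes, 0 were called over all rows (1 higher and 5 lower at an unadjusted p under 0.05), and 3 (*Myh7*, *Myl3* and *Mylk2*) fell and 0 rose above 10 CPM. *Myh7*, the slow myosin heavy chain, was at 1368, 1844 and 1309 CPM in the sham limbs, 307, 766 and 695 CPM in the atrophy and 187, 373 and 524 CPM in the repeated atrophy limbs. No limb of one group reached the other, and the log2 difference was -1.80 ± 0.38 (adjusted p = 0.0403 above 10 CPM, 0.109 over all rows, 0.027 without atrophy 2). Left minus right, *Myh7* was negative in all silenced animals, down to -2.81. The atrophy 2 animal, at -0.87, lay within the -1.23 to 0.91 of the sham animals. *Myh6*, the cardiac α chain, whose sequence is close to that of *Myh7* so that reads may be shared, is no member of the list and fell by 1.65 (adjusted p = 0.0404 above 10 CPM). *Myl3*, the slow essential light chain, was at 473, 642 and 208 CPM in sham and 69.8 to 207 CPM in silenced limbs and fell by 1.79 ± 0.32 (adjusted p = 0.0329 above 10 CPM). The highest silenced limb of *Myl3*, at 207 CPM, was just under sham 3. *Myl2*, the slow regulatory light chain, was at 198, 302 and 147 CPM in sham and 84.9 to 156 CPM in silenced limbs and was not called with or without atrophy 2 (-0.90, adjusted p = 0.156 and 0.0999).

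The fast and developmental isoforms did not share this pattern. *Myh4*, the fast heavy chain of type IIb fibres, was at 40439 to 43632 CPM in the sham limbs and at 54579 CPM in atrophy 2. It was at 16112 and 15162 CPM in atrophy 1 and 3 and at 35100 to 42514 CPM in the repeated atrophy limbs, and it was not called (log2 difference -0.47, adjusted p = 0.841; 0.644 without atrophy 2). Embryonic *Myh3* was at 8.94, 81.5 and 31.2 CPM in sham limbs and 100.3 to 299.6 CPM in 5 silenced limbs, and it was not called with all limbs but was called without atrophy 2, which was at 8.96 CPM (2.74, adjusted p = 0.0392). *Tnnt2*, the cardiac and embryonic troponin T, behaved in the same way (2.35 without atrophy 2, adjusted p = 0.0121). *Acta1*, the skeletal actin and the most abundant of the 15 troponin, tropomyosin and actin genes, ranged from 15331 to 27480 CPM in silenced and from 12296 to 43115 CPM in sham limbs and was not called (-0.20, adjusted p = 0.922). *Actg1*, the cytoplasmic γ-actin, is no member of these lists and was noticed among the called rows. It was at 249.7, 249.6 and 116 CPM in sham and 73.4 to 104 CPM in silenced limbs and fell by 1.16 (adjusted p = 0.0448 above 10 CPM). The untreated right limbs of the silenced animals were also low, at 91.2 to 169.7 CPM against 283, 198 and 169 CPM in the sham animals, and the left minus right difference was -0.43 (adjusted p = 0.389).

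Regulators of oxidative metabolism were not called in the comparison of left limbs. Of 19 PGC-1, PERM1 and nuclear receptor genes, 0 were called over all rows (2 higher and 3 lower at an unadjusted p under 0.05), above 10 CPM or without atrophy 2. *Perm1*, a muscle regulator of mitochondrial genes, was at 57.9, 285 and 31.4 CPM in sham, 19.3, 85.2 and 42.2 CPM in atrophy and 9.76, 7.06 and 4.47 CPM in repeated atrophy limbs. The 3 repeated atrophy limbs lay below all sham limbs, while atrophy 2 and 3 did not, and the log2 difference was -2.17 (adjusted p = 0.169; 0.0638 without atrophy 2). *Ppargc1a*, the coactivator PGC-1α, was below 5 CPM in all 9 limbs (log2 difference -0.75, adjusted p = 0.229). *Prkag3*, the glycolytic-muscle subunit of AMP-activated kinase, was above sham in every silenced limb (93.5 to 476 against 83.4, 92.4 and 41.8 CPM), with adjusted p = 0.149 and 0.0615 without atrophy 2. In left minus right differences, the repeated atrophy animals were called against the sham animals for *Perm1*, with a log2 difference of -4.14 (adjusted p = 0.0489), and for *Prkag3*, with one of 1.92 (adjusted p = 0.0482). Of 74 respiratory chain and ATP synthase subunits, 28 citrate cycle and pyruvate genes and 27 fatty acid genes, none was called over all rows or above 10 CPM, and 2 fatty acid genes fell without atrophy 2. At an unadjusted p under 0.05 the counts were 1 higher and 2 lower, 0 higher and 1 lower, and 1 higher and 3 lower, in the same order. Negative differences were in the majority, in 55 of 74, 22 of 28 and 17 of 27, against 5826 of all 13712 rows. The medians were -0.20, -0.29 and -0.14 against 0.06 for all rows. The sham limbs differed among themselves by more than that, with medians for the respiratory genes from -0.43 to 0.44. *Hadh*, a dehydrogenase of β-oxidation, was 1 of the 2 fatty acid genes (129, 235 and 74.3 CPM in sham, 40.9 to 53.03 CPM in 5 silenced limbs, 125 CPM in atrophy 2, log2 difference -1.50, adjusted p = 0.033 without it).

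None of 20 ubiquitin ligase and FoxO genes, 34 proteasome subunits or 26 autophagy and lysosome genes was called over all rows or above 10 CPM. At an unadjusted p under 0.05 the counts were 4 higher and 1 lower, 5 higher and 0 lower, and 5 higher and 0 lower, in the same order, where 11.5% of all rows were higher and 5.54% lower. *Trim63*, encoding the ligase MuRF1, was at 307, 333 and 4029 CPM in sham 1, 2 and 3. The silenced limbs, at 562 to 2389 CPM, were all above the first 2 and below the third, and the log2 difference was 0.39 (adjusted p = 0.827; 0.131 without sham 3). Its sign turned without sham 1 or sham 2. The right limb of sham 3 was also high for *Trim63*, at 2957 CPM. Left minus right, *Trim63* was higher on the left in all 6 silenced animals, by 0.31 to 2.30, against -0.27 to 0.55 in the sham animals. Between left limbs *Fbxo32*, the ligase atrogin-1, was similar, at 23.9, 20.8 and 103 CPM in sham and 28.9 to 61.3 CPM in silenced limbs (0.06, adjusted p = 0.955; 0.14 without sham 3). Left minus right, *Fbxo32* ran from -0.58 to 1.77 in the silenced and from -0.51 to 1.21 in the sham animals. *Fbxo30*, the ligase MUSA1, was the only member of its list called without atrophy 2 (1.35, adjusted p = 0.0367), at 16.7, 26.96 and 40.1 CPM in sham and 35.6 to 88.6 CPM in silenced limbs. *Trim55*, the related ligase MuRF2, was at 99.9, 140.2 and 113 CPM in sham and 132 to 333 CPM in silenced limbs (adjusted p = 0.176; 0.0576 without atrophy 2).

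Proteasome subunits had positive differences in 31 of 34 genes, against 7886 of all 13712 rows. The list median was 0.36, and all 34 missed the threshold also without atrophy 2. Per limb, the median was 0.03 in atrophy 2, 0.27 to 0.80 in the other silenced limbs and -0.41, 0.05 and 0.34 in the sham limbs, so that sham 3 lay among the silenced limbs. *Psmb5*, the chymotrypsin-like catalytic subunit, had no overlap between groups (158 to 295 against 155, 142 and 152 CPM, log2 difference 0.58, adjusted p = 0.175), and *Psmd14*, the deubiquitinase of the lid, had a difference of 0.68 (adjusted p = 0.157). Without atrophy 2, 2 of the 26 autophagy genes rose, among them *Gabarapl2*, an ATG8 family member (180.5, 124 and 198 CPM in sham, 192 to 476 CPM in silenced limbs, 1.18, adjusted p = 0.0267). *Sqstm1*, the autophagy receptor p62 and the most abundant of them, was not called (0.48, adjusted p = 0.43; 0.39 without atrophy 2).

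Growth arrest and stretch-responsive genes contained some of the largest differences. Of 18 p53, Gadd45 and cell cycle inhibitor genes, 0 were called over all rows (3 higher and 3 lower at an unadjusted p under 0.05) and 2 rose above 10 CPM. *Gadd45a*, a stress protein of denervated muscle, was at 82.2, 85.3 and 616 CPM in sham, 1277, 465 and 1799 CPM in atrophy and 2323, 1615 and 1290.2 CPM in repeated atrophy limbs. Atrophy 2 lay below sham 3 and the other 5 limbs were at 1277 CPM or more, and the log2 difference was 3.00 ± 0.65 (adjusted p = 0.038 above 10 CPM, 0.0223 without atrophy 2). *Cdkn1a*, the cyclin kinase inhibitor p21, was at 64.5, 142 and 287 CPM in sham and 193 to 1165 CPM in silenced limbs (2.39, adjusted p = 0.0448 above 10 CPM). *Ccng1*, a p53 target and the most abundant of the list, had a difference of 1.01 and was not called (adjusted p = 0.225). Of 18 ankyrin repeat and stretch-sensing genes, 0 were called over all rows (7 higher and 2 lower at an unadjusted p under 0.05), 2 rose above 10 CPM and 4 without atrophy 2, with a list median of 0.59. Beside this and the preceding list, 1.41% of all rows rose above 10 CPM and 3.89% rose without atrophy 2. *Csrp3*, the muscle LIM protein of the Z-disc, was at 65.6, 128 and 317 CPM in sham and 283 to 2198 CPM in silenced limbs (2.68, adjusted p = 0.047 above 10 CPM). *Myom3*, a myomesin of the M-band, rose by 3.802 (adjusted p = 0.0454 above 10 CPM), with 4.31, 33.5 and 24.6 CPM in sham, 195 to 666 CPM in 5 silenced limbs and 21.5 CPM in atrophy 2. *Ankrd1*, the stretch-induced ankyrin repeat protein CARP, was at 132, 310.1 and 2544 CPM in sham limbs, 9472, 1131 and 6997 CPM in atrophy and 12114, 5290.3 and 4202 CPM in repeated atrophy limbs. Sham 3 was above atrophy 2 for *Ankrd1*, and the gene was called without atrophy 2 (3.94, adjusted p = 0.0346) and also without sham 3 (adjusted p = 0.0491).

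Metallothioneins, small proteins that bind zinc, and zinc transporters made up 11 genes, of which 0 were called over all rows or above 10 CPM (5 higher and 0 lower at an unadjusted p under 0.05 over all rows) and 2 rose without atrophy 2. *Mt1* was at 4.35, 4.78 and 44.2 CPM in sham limbs, 45.6, 18.2 and 90.8 CPM in atrophy and 157, 105 and 129 CPM in repeated atrophy limbs (3.04 without atrophy 2, adjusted p = 0.0335). *Mt2A* was at 177 CPM in sham 3 against 18.5 and 8.90 CPM in the other sham limbs, with the silenced limbs at 47.7 to 222 CPM, and was called without sham 3 (adjusted p = 0.0432) but not with all limbs (adjusted p = 0.247) or without atrophy 2 (adjusted p = 0.158). Among 24 genes of the myostatin, activin and IGF axis, *Fst*, the follistatin that binds myostatin and activins, was the 1 called above 10 CPM. It was at 5.55, 8.94 and 13.3 CPM in sham and 15.9 to 74.2 CPM in silenced limbs without overlap, with a log2 difference of 2.10 ± 0.42 (adjusted p = 0.0332 above 10 CPM, which it reached through the silenced limbs, and 0.105 over all rows). *Nog*, the BMP antagonist noggin, was lower in all silenced limbs (1.87 to 3.73 against 11.8, 6.11 and 3.74 CPM) and was not called with or without atrophy 2 (adjusted p = 0.2 and 0.141), and its log2 difference of -0.99 was -0.41 left minus right. Over all rows the list had 0 calls, 1 higher and 4 lower at an unadjusted p under 0.05, and a median of -0.28.

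Of 22 genes of the ATF4 and amino acid stress response, 1 rose and 1 fell without atrophy 2 and none was called with all limbs (1 higher and 5 lower at an unadjusted p under 0.05). *Atf4* itself, the transcription factor of the response, was lower in all silenced limbs, although atrophy 2 and sham 2 were almost level (119 to 387 against 618, 387 and 1190 CPM, log2 difference -1.64, adjusted p = 0.128 with all limbs and 0.0395 without atrophy 2). *Slc38a2*, an amino acid transporter and the most abundant of the list, was not called (0.75, adjusted p = 0.287). Of 14 polyamine genes 0 were called with all limbs (3 higher and 2 lower at an unadjusted p under 0.05), and 1 rose and 1 fell without atrophy 2. *Azin1*, the inhibitor of antizyme, was higher in every silenced limb (73.5 to 180.3 against 50.6, 57.4 and 71.6 CPM, 1.07, adjusted p = 0.0372 without atrophy 2), and *Oaz2*, an antizyme that slows polyamine synthesis, was lower in every one (179.6 to 311 against 361, 348 and 326 CPM, -0.71, adjusted p = 0.0423). Of 15 NAD biosynthesis genes 0 were called over all rows (1 higher and 1 lower at an unadjusted p under 0.05), above 10 CPM or without atrophy 2, and *Nnt*, the mitochondrial transhydrogenase with the highest mean, had a difference of -0.63 (adjusted p = 0.229).

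Cytosolic ribosomal protein genes had positive differences in 72 of 74 members, against 7886 of all 13712 rows. Their median difference was 0.40 (0.27 when limbs were rescaled, 0.72 without sham 3). The sham limbs spanned more than this difference, with medians of 0.03, -0.71 and 0.69 in sham 1, 2 and 3, and none was called with all limbs (5 higher and 1 lower at an unadjusted p under 0.05). Of all rows, 11.5% were higher and 5.54% lower at that p. Without atrophy 2, *Rpl3*, the widely used paralogue, rose by 1.75 (adjusted p = 0.0345), and *Rpl3l*, its paralogue in adult striated muscle, fell by 1.34 (adjusted p = 0.00928). *Rpl3* was at 159, 127 and 456 CPM in sham and 643 to 798 CPM in 5 silenced limbs, and *Rpl3l* at 559, 505 and 348 and 138 to 224 CPM. In atrophy 2 both were within the sham range, at 265 and 508 CPM. The 29 collagen and matrix genes had a median of -0.05, with 0 called over all rows (2 higher and 2 lower at an unadjusted p under 0.05) or above 10 CPM and 1 called higher without atrophy 2, and limb medians within the silenced group ran from -0.64 to 0.40. *Sparc*, a matrix glycoprotein and the most abundant of them, was not called (-0.46, adjusted p = 0.384). Of 16 circadian clock genes, 0 were called over all rows (0 higher and 1 lower at an unadjusted p under 0.05) and 1 fell above 10 CPM. It was *Nfil3*, a repressor of D-box genes, which was at 95.2, 30.7 and 212 CPM in sham limbs and at 4.50 to 23.8 CPM in 5 silenced limbs, while atrophy 2 was at 44.6 CPM, above sham 2. It fell by 3.04 ± 0.66 (adjusted p = 0.038 above 10 CPM). *Tef*, another D-box factor and the most abundant of the list, was not called (0.17, adjusted p = 0.697).

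**Figure D4:**
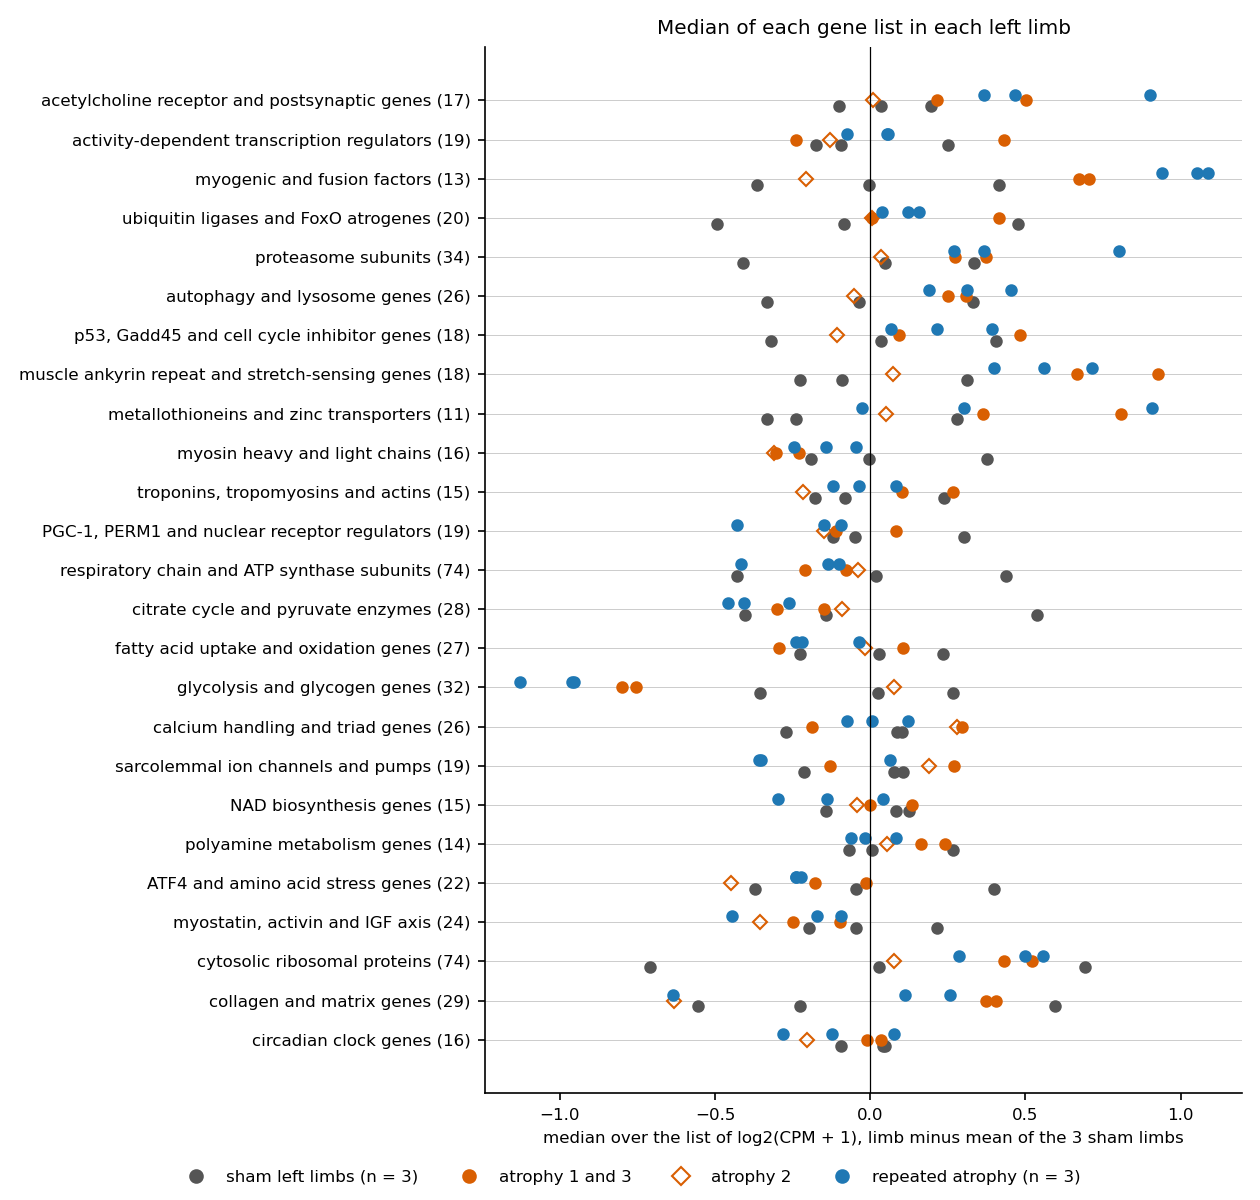
Median over each gene list (number of genes tested in brackets) of the difference of a left limb from the mean of the 3 sham left limbs, on the log2(CPM + 1) scale. Each symbol is a limb, the open diamond is atrophy 2. Glycolysis genes are between -0.75 and -1.13 in 5 silenced limbs and at 0.08 in atrophy 2, and the sham limbs of several lists, among them the ribosomal genes, are spread over more than the silenced limbs.

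Among the rows in which all 6 silenced limbs lay beyond all 3 sham limbs, the 12 with the largest difference in each direction and a mean of at least 10 CPM in a group were chosen after their values were seen. They are a description, since the absence of overlap selected them. The higher ones reported here, 11 in number, were *Ppp1r14c*, *Chrnd*, *Krt8*, *Gpnmb*, *Acot6*, *Dok3*, *Dclk1*, *Mgst2*, *Tgfb2*, *Serpina12* and *Piezo1*, with log2 differences from 2.62 to 3.62. For *Dclk1* the row without overlap was not the one with the highest mean. *Krt8*, a keratin of simple epithelia that can also be found in muscle, was at 1.55, 3.76 and 7.14 CPM in sham, 40.4, 8.61 and 60.6 CPM in atrophy and 70.1, 52.5 and 60.4 CPM in repeated atrophy limbs. *Gpnmb*, a membrane glycoprotein that macrophages and injured tissue make, was at 26.2, 81.2 and 233 CPM in sham and 337 to 1039 CPM in silenced limbs. Left minus right, the groups overlapped for *Gpnmb*, at 1.363 to 4.815 in the silenced and -1.477 to 2.783 in the sham animals. That difference was 2.08 (limma adjusted p = 0.214). *Serpina12*, the adipokine vaspin, was at 1.01, 1.46 and 2.80 CPM and 7.11 to 22.6 CPM, and *Piezo1*, a mechanically gated cation channel, at 18.8, 24.4 and 23.8 and 29.5 to 377 CPM. Atrophy 2 was the lowest silenced limb for all 11.

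The 12 lower ones were *Tpx2*, *Snai3*, *Nr4a1*, *Esm1*, *Thra*, *Myh7*, *Myl3*, *St8sia5*, *Tpm3*, *Myh6*, *Atf4* and *Clu*, with differences from -1.62 to -2.62. *Clu*, the secreted chaperone clusterin, was at 380.3, 391 and 181 CPM in sham limbs and 69.2 to 148 CPM in silenced limbs (adjusted p = 0.0874 over all rows, 0.0309 above 10 CPM). Left minus right, the difference was -0.91 (adjusted p = 0.125, or 0.0482 for the repeated atrophy animals alone), and *Clu* was higher on the left by 0.076 and 0.125 in the atrophy 2 and 3 animals. *Thra*, the thyroid hormone receptor α, was at 29.6, 41.1 and 27.3 CPM and 2.52 to 22.8 CPM (adjusted p = 0.044 above 10 CPM), for the row without overlap. *Tpx2*, a spindle assembly factor, was at 84.1, 48.4 and 213 CPM in sham and 10.04 to 37.4 CPM in silenced limbs, and *Esm1*, a proteoglycan of activated endothelium, at 15.5, 6.33 and 21.1 and 1.51 to 3.46 CPM. For both, the right limbs of the silenced animals lay below all sham right limbs, at 13.2 to 55.8 against 71.03 to 186 CPM for *Tpx2* and at 4.50 to 7.37 against 7.41 to 21.3 CPM for *Esm1*. The left minus right differences were -1.05 and -0.80 (adjusted p = 0.231 and 0.198), against -2.62 and -1.96 between left limbs. *Dysf*, the membrane repair protein dysferlin, was also noticed after its values were seen. It was at 145 to 267 CPM in sham and 264 to 918 CPM in silenced limbs and rose by 1.57 (adjusted p = 0.047 above 10 CPM), with atrophy 2 just under sham 3.

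A list of genes discussed by the study for the aged rat transcriptome had 27 members tested. They were chosen on samples that include these limbs, so their direction is not independent evidence. None was called over all rows (4 higher and 14 lower at an unadjusted p under 0.05), 2 rose and 4 fell of 19 above 10 CPM, and 6 rose and 9 fell without atrophy 2. In the same order, the shares over all rows were 11.5% and 5.54%, 1.41% and 0.37%, and 3.89% and 1.2%. Besides genes given above, *Ddit4l2*, named after the mTORC1 inhibitor DDIT4-like, was at 174, 80.9 and 32.00 CPM in sham and 3.64 to 16.7 CPM in 5 silenced limbs and fell by 2.80 (adjusted p = 0.044 above 10 CPM), with atrophy 2 at 93.98 CPM. *Acss1*, the mitochondrial acetyl-CoA synthetase, fell by 2.42 (adjusted p = 0.0331 above 10 CPM), at 101, 48.6 and 39.03 CPM in sham and 5.02 to 39.96 CPM in silenced limbs, where atrophy 2 lay just above sham 3. *Dhrs7c*, a dehydrogenase of the sarcoplasmic reticulum, and *Fanca*, of the DNA crosslink repair pathway, were not called with all limbs and were called without atrophy 2 (-3.15 and -2.27, adjusted p = 0.00354 and 0.00413). *Apln*, the peptide hormone apelin, was below 1 CPM in all silenced limbs and in sham 3 and at 12.7 and 6.60 CPM in sham 1 and 2. It was not called with all limbs (log2 difference -1.84, adjusted p = 0.189) or left minus right (-0.96, adjusted p = 0.155), and was called without sham 3 (-2.87, adjusted p = 0.0136). *Park7*, the redox sensor DJ-1, differed by -0.16 (adjusted p = 0.685).

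Markers of other cells in the muscle were examined beside these results, and their part in them was not tested. Skeletal muscle markers summed to 61894 to 125676 CPM in silenced and 89545 to 135143 CPM in sham limbs, with all 6 above 0 in every limb. Macrophage markers (8 of 8 tested) summed to 80.2 to 360 CPM in silenced and 169 to 347 CPM in sham limbs, endothelial markers (5 of 5) to 135 to 219 and 202 to 461 CPM, and fibroblast markers (5 of 5) to 221 to 528 and 215 to 625 CPM. Smooth muscle and pericyte markers (5 of 5) were at 120 to 216 and 150 to 210 CPM, Schwann cell markers (7 of 7) at 51.3 to 81.3 and 45.1 to 66.4 CPM, adipocyte markers (5 of 5) at 87.7 to 157 and 115 to 320 CPM, and satellite cell markers (5 of 5) at 38.2 to 129 and 29.5 to 97.9 CPM. Red blood cell markers (3 of 3) ranged from 261 to 1130 CPM and from 403 to 1532 CPM, with atrophy 2 and sham 1 highest in their groups. Neutrophil (3 of 4), T cell (4 of 4) and proliferating cell markers (4 of 4) summed to less than 40 CPM in every limb, and sham 1 was the highest limb in each. *Mpo* was not tested, and *Cd3d*, *Lep*, *Cidec*, *Calcr* and *Top2a* were at 0 in some limb. The summed levels overlapped between the groups for all 12 cell types, and no marker was called with all limbs. At an unadjusted p under 0.05, 3 of 5 adipocyte, 2 of 5 endothelial, 1 of 8 macrophage and 1 of 5 smooth muscle and pericyte markers were lower and 0 markers of any type were higher. All 5 adipocyte, all 5 endothelial and all 8 macrophage markers had negative differences. So had all 3 neutrophil, all 3 red blood cell and all 4 proliferating cell markers tested, and the remaining types had markers of both signs. Of all 13712 rows, 5826 had negative differences.

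The 2 silenced groups were also set against the sham limbs one at a time, with the sham limbs shared between both contrasts. For atrophy, 0 rows were called (limma, 1088 at an unadjusted p under 0.05, lowest adjusted p = 0.575), and 90 were called higher and 35 lower without atrophy 2. For repeated atrophy, 6 rows were called and 2437 had an unadjusted p under 0.05. These were *Mgst2*, a microsomal glutathione transferase, the dynein gene *Dnah1*, the cystatin *Cst7* and the BMP antagonist *Chrd* on the higher side and *Tpm3* and *Socs3* on the lower side. The count rose to 110 without sham 3 and was 0 without sham 2, repeated atrophy 2 or repeated atrophy 3. Log2 differences for atrophy and repeated atrophy stood side by side at 2.81 and 4.52 for *Chrna1*, at 2.33 and 2.72 for *Myog*, at -1.49 and -2.02 for *Tpm3* and at -1.06 and -1.51 for *Pfkm*. In the test of repeated atrophy against atrophy, 0 rows were called, with 427 at an unadjusted p under 0.05 and a lowest adjusted p of 0.862. The atrophy means contain atrophy 2, and the 3 against 3 comparison does not show that the groups were alike.

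The left limb was last compared with the right limb of the same animal, and the differences of the 6 silenced animals with those of the 3 sham animals. Over 14075 rows 0 were called (limma with the animal as a block, 2749 at an unadjusted p under 0.05, lowest adjusted p = 0.125), while 1059 were called higher and 246 lower without the atrophy 2 animal. The repeated atrophy animals alone against the sham animals gave 63 rows called higher (0.448%) and 43 called lower (0.306%). *Chrna1* was higher in the left limb by 3.24 to 4.17 on the log2 scale in 5 silenced animals and by 0.00 in the atrophy 2 animal, against -0.41 to 1.64 in the sham animals. *Myog* was higher on the left by 1.42 to 3.92 in all 6, above the 0.06 to 0.81 of the sham animals, and was called for the repeated atrophy animals (adjusted p = 0.0482). *Sln* and *Krt8* were also called there (adjusted p = 0.0468 and 0.0482), and both had positive differences in 6 of 6 silenced animals.

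On the lower side, *Fbp2* differed between left and right by -2.37 to -4.95 in 5 silenced animals, by -0.28 in the atrophy 2 animal and by -0.08 to 0.07 in the sham animals (adjusted p = 0.0482 for repeated atrophy). *Tpm3* was lower on the left in 6 of 6 silenced animals, by -0.78 to -2.21, but the sham animals ran from -0.70 to 0.90 and it was not called for repeated atrophy (adjusted p = 0.0693). *Myl3* was called there (adjusted p = 0.0482), with 6 of 6 silenced animals between -0.59 and -2.68 and the sham animals between -0.57 and 0.26. *St8sia5*, a sialyltransferase, was lower on the left by -0.77 to -3.01 in the silenced animals and by -0.13 to 0.03 in the sham animals (adjusted p = 0.0468).

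**Figure D5:**
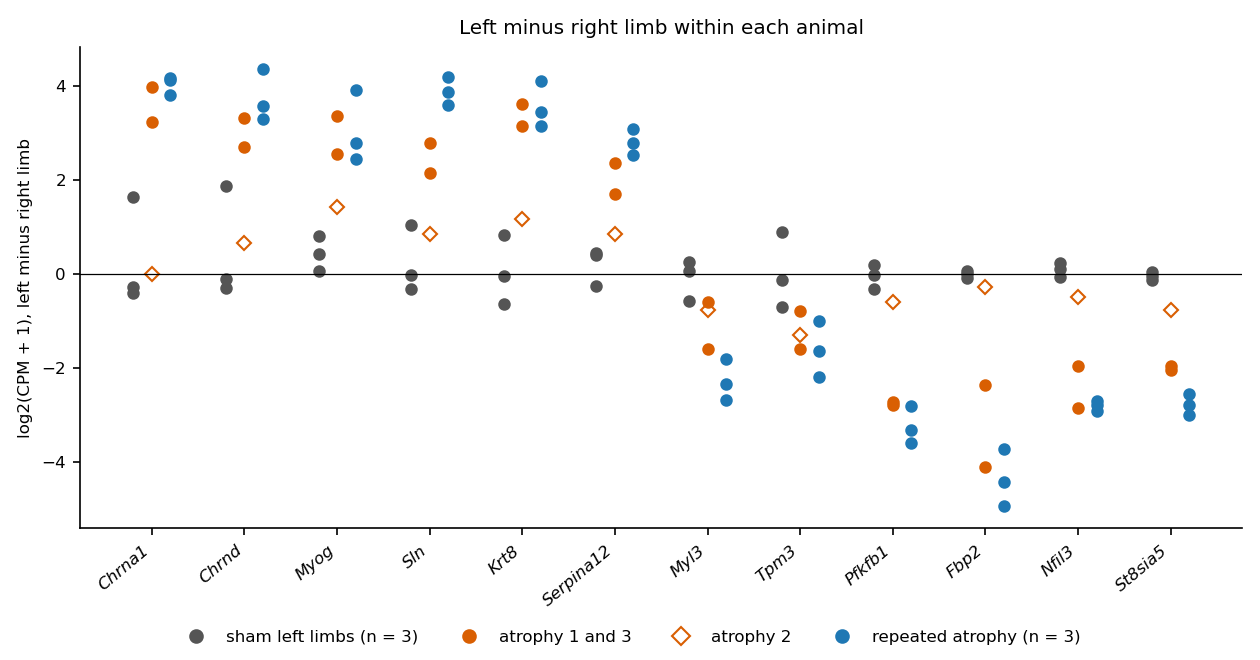
Left minus right limb on the log2(CPM + 1) scale for 12 genes, each symbol an animal, the open diamond the atrophy 2 animal. The silenced animals other than atrophy 2 lie at 1.71 or more for the 6 genes on the left of the plot, and atrophy 2 lies between them and the sham animals, or among the sham animals for *Chrna1*, *Chrnd* and *Sln*.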

How the data were processed

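Total RNA of the TA was sequenced from 24 limbs of 12 rats. The authors prepared directional libraries from polyadenylated RNA and removed contaminant reads with Bowtie2 (2.2.5). They aligned to rn7 with STAR and worked in Partek; the annotation and counting step are not given in the sources used here. The authors deposited CPM, each column summing to 1000000, although a median of ratios had been assumed for the tests, whose form was kept. Of 27 value columns, 24 were used and 3, which match no sample, were not. Of 14271 rows, 28 exact duplicates were dropped. In each left limb, 87.0% to 88.3% of values below 3.0 CPM were whole multiples of the most frequent of them within 0.01 reads, so whole reads were not taken as recovered. Counting error was not modelled. How reads of near-identical genes such as *Myh6* and *Myh7* were split is not given.

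Values were log2(CPM + 1), which understates the difference of low genes, fitted with an intensity trend in limma 3.58.1, run in R 4.3.3, with the 9 left limbs in 3 groups. Adjusted p-values are Benjamini-Hochberg over all rows tested. Each limb is from a separate animal. The labels pair the limbs of each animal, so the within-animal fit rests on the labels. The correlation between the limbs of sham animals was 0.714. Single values were compared by exact permutation with Python 3.11.15, numpy 2.4.6, scipy 1.17.1 and pandas 2.3.3. Figures used matplotlib 3.10.9. Promoters came from RefSeq (GRCr8), with positions of that build, and positions of table rows are those of rn7.

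Named genes were the called rows, the highest mean and the called members of each list with what a sentence needed, and the genes the study names. Of the genes this rule takes, 3 are not reported here, though they stay in the counts. The 23 rows without overlap that are named, *Actg1* and *Dysf* were chosen after their values were seen, and the limbs, lists and rule were chosen with earlier results of these data known. Alternatives were other pseudocounts (0.1, 10), scalings (quantile, or a trimmed mean of log ratios with 30% of ratios and 5% of levels trimmed), filters, rows summed per symbol, reference limbs, forms of the fit and leaving out each limb. Added after seeing the data were an adjusted p of at most 0.1, leaving out atrophy 2 with sham 3 or with rescaling, and the repeated atrophy animals alone in the within-animal fit. Recovery limbs entered only the fit with all 12 left limbs, and right limbs only the within-animal comparisons and, for sham animals, the alternative with both limbs as reference.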

Additional observations from a re-analysis of the deposited data

Results flagged for a closer look

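In 40 of 124 named genes (31.5% of 127 genes and single values examined), the highest or lowest of the 6 silenced limbs was farther from the next limb, as a share of the range of the 6 on the log2(CPM + 1) scale, than Dixon's 95% critical value for 6 samples allows. Chance gives about 1 in 20 for a single group taken without selection. That rate is no measure for this share. Some of the genes were chosen after their values were seen, both silenced groups are pooled, and all genes share the same libraries. In 38 of the 40 genes the limb was atrophy 2, the highest in 19 and the lowest in 19. All are values of 1 library, and the cause was not tested.

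Atrophy 2 was highest, on the side of the sham limbs, for glycolysis and lactate-linked genes, with a share of 0.881 for *Pfkm*, 0.848 for *Fbp2*, 0.732 for *Pkm*, 0.696 for *Pfkfb1*, 0.651 for *Gpd1* and 0.648 for *Eno3*. The same held for genes of fast contraction and the membrane, at 0.757 for *Mylk2*, 0.756 for *Kcna7*, 0.769 for *Dhrs7c*, 0.685 for *Atp2a1*, 0.666 for *Aqp4* and 0.701 for *Ache*. It also held for *Hadh* (0.769), *Rpl3l* (0.628), *Tpx2* (0.722), the crosslink repair gene *Fanca* (0.856), the channel subunit *Lrrc38* (0.68), the melanocortin receptor *Mc5r* (0.743) and the calcium-binding *Rgn* (0.699).

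Atrophy 2 was lowest, again on the side of the sham limbs, for receptor and myogenic genes, at 0.725 for *Chrnb1*, 0.661 for *Chrnd*, 0.697 for *Myod1*, 0.663 for *Myf6* and 0.651 for *Runx1*. For channels, pump regulators and sarcomere genes it was 0.715 for *Cacnb1*, 0.666 for both *Kcnn3* and *Sln*, 0.681 for *Myh3*, 0.639 for *Myom3* and 0.692 for *Dysf*. The others were *Gadd45a* (0.628), *Cdkn1a* (0.649), *Rpl3* (0.804), *Krt8* (0.729), *Ppp1r14c* (0.725), *Tgfb2* (0.722), *Serpina12* (0.676) and the adaptor gene *Dok3* (0.663).

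In the other 2 genes a different limb stood apart. *Des*, encoding desmin, was highest in atrophy 3 (0.753), and *Tef* was highest in repeated atrophy 3 (0.68).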

How the results depend on the processing

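Calls depended on the processing more than directions did. Against 2 calls in the comparison of silenced and sham limbs, there were 4 with a pseudocount of 0.1 and 1 with 10, 5 after rescaling, 5 after quantile normalization, 125 among rows with a mean of at least 10 CPM, where fewer rows were tested, 1 with no filter, 0 without the intensity trend, 4 with robust hyperparameters, 0 with the 6 silenced limbs as 1 group, 24 with all 12 left limbs in the fit, 401 with both limbs of the sham animals as reference, and 4 with rows summed per symbol. The replicate block, which pairs the limbs of each animal, gave 0 calls. Leaving out 1 limb gave from 0 to 693 calls (693 without atrophy 2, 49 without sham 3, 1 without sham 1, 0 without any of the others). After seeing the data, an adjusted p of at most 0.1 gave 66 calls, leaving out atrophy 2 and sham 3 gave 1150, and leaving out atrophy 2 with rescaling gave 563, of which 321 were higher and 242 lower against 530 and 163 without rescaling. For atrophy against sham, leaving out 1 limb gave from 0 to 125 calls, the latter without atrophy 2. For repeated atrophy against sham, 6 calls became 24 after rescaling, 363 with only the 6 limbs in the fit, 106 with the replicate block, 394 at an adjusted p of at most 0.1 and from 0 to 110 on leaving out 1 limb (3 without sham 1, 11 without repeated atrophy 1, 110 without sham 3). Left minus right differences gave 0 to 1305 calls on leaving out 1 animal (1305 without atrophy 2), 106 with the repeated atrophy animals alone, and 0 without the replicate block. The difference in the share of the 10 most abundant rows ran from -5.90 to -8.54 percentage points on leaving out 1 limb, with an exact permutation p above 0.05 unless the limb was atrophy 2, and the difference in inferred depth from -0.313 to 3.24, in units of 1000000 reads, turning negative without sham 2. The causes were not tested.

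Over 124 named genes and 27 alternatives, 2919 of 3333 comparisons kept direction and side of the threshold, 376 were newly called, 23 lost a call and 15 changed sign, all in genes not called with all limbs. The sign changed for *Fbxo32* after rescaling (-0.067), after quantile normalization (-0.08) and with atrophy 2 left out and rescaling (-0.071), and on leaving out 1 limb its difference ran from -0.344 to 0.786 (negative without sham 1, sham 2 or atrophy 3). That of *Trim63* ran from -0.25 to 1.60 (negative without sham 1 or sham 2), of *Acta1* from -0.655 to 0.25 and of *Atp5f1b* from -0.537 to 0.054, both turning without sham 2. Quantile normalization turned *Acta1* (0.379), *Myh4* (0.087) and *Tef* (-0.073), the replicate block turned *Sparc* (0.178), and summing rows per symbol turned *Ntf3* (-0.105).

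With 3 limbs per group and CPM without read numbers, rows of a few CPM, such as *Socs3*, rest on few reads, and a missed threshold does not show that limbs were alike. Sham limbs come from 3 time points, 1 each, so that time and animal cannot be told apart within that group.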
